A study of Bos taurus with 8 samples.

Results

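The elastic fibre and microfibril genes ELN, FBN1, MFAP2, MFAP5, MFAP4, FBLN1, FBLN5, EFEMP1 and LTBP1 were followed in single-cell transcriptomes of bovine skeletal muscle and of the cultures grown from it. They were taken by their symbols, and 9 of the 21880 genes in the count matrices carried them, 1 row each. Cells came from the semitendinosus muscle of 10 Belgian Blue cattle, 5 calves (donors 2, 4, 5, 7 and 10) and 5 adults (donors 1, 3, 6, 8 and 9), and each donor's cells were cultured separately without serum. Donors 6, 8 and 10 were male and the other donors female. Timepoint 1 was unsorted cells straight after collagenase digestion (muscle) and Timepoint 2 was unsorted cells after 72 h on fibronectin (passage 0, P0). Timepoints 3, 4 and 5 were passages 2, 5 and 8 of unsorted cultures on fibronectin (donors 1, 2 and 9), of cultures sorted for satellite cells (SCs) on laminin-521 (donors 5, 6 and 10) and of cultures sorted for fibro-adipogenic progenitors (FAPs) on collagen I (donors 4, 7 and 8). Donor 3 was present at Timepoint 1 alone. All donors were pooled into 1 library per timepoint, so a difference between timepoints and a difference between libraries cannot be told apart, and sorting and coating changed between P0 and P2 together with time in the sorted cultures.

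Elastic fibres give tissues their recoil. An elastin core is laid down on a scaffold of fibrillin microfibrils, guided by fibulins and other small glycoproteins and cross-linked by lysyl oxidases, and the microfibrils also hold latent TGF-beta complexes in the matrix. In skeletal muscle this network lies in the connective tissue around fibres and bundles and in the walls of vessels, and fibroblast-like cells, smooth muscle and endothelium are known sources.

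The core protein is encoded by ELN (ENSBTAG00000019517, tropoelastin) and the microfibril backbone by FBN1 (ENSBTAG00000002278, fibrillin). MFAP2 (ENSBTAG00000003832) and MFAP5 (ENSBTAG00000000310) encode small glycoproteins that bind fibrillin along the microfibril, and MFAP4 (ENSBTAG00000006187) encodes a secreted glycoprotein that binds elastin and fibrillin. Of the fibulins, FBLN5 (ENSBTAG00000018123) carries tropoelastin to the scaffold, FBLN1 (ENSBTAG00000012088) is found in elastic fibres and basement membranes, and EFEMP1 (ENSBTAG00000017448) is a related extracellular glycoprotein. LTBP1 (ENSBTAG00000019839) tethers latent TGF-beta to fibrillin microfibrils.

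Levels are given as CPM, the unique molecular identifiers (UMIs) of a gene when all UMIs of 1 donor's cells of 1 type in 1 library are scaled to a total of 1000000, for donors with at least 10 such cells. A read near the 3′ end was counted for each molecule, so a level is compared between samples and not between genes. A gene was called changed where its log2 fold change (log2-FC) was above 1 or below -1 and edgeR's quasi-likelihood test over donors gave an adjusted p under 0.05. The 36129 cells carried a median of 4184 UMIs in the muscle library and of 18340 to 27240 in the 4 culture libraries, and 129 barcodes occurred in more than 1 library. FAP markers were highest in the cells labelled FAPs for 3 of 5 genes in muscle and 4 of 5 in each culture library, and SC markers were highest in the cells labelled SCs for 3 to 6 of 6 genes. Cell types had been assigned from the same expression values, so levels by cell type are descriptions without a test.

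In muscle, FAPs were the main site of 7 of the 9 genes among the types with donor values, and ELN and LTBP1 were shared with endothelium and mural cells. In the FAPs of 10 donors MFAP5 ranged from 2305 to 5266 CPM with a median of 4062, and its median in each other type with at least 4 donors was at most 47.2 CPM. FBN1 ranged from 2267 to 4647 CPM (median 2692) in FAPs and had a median of 221 CPM in SCs and 149 CPM in vascular endothelial cells (VECs). Every FAP donor lay above every donor of the SCs, VECs, smooth muscle and mesenchymal cells (SMMCs) and lymphatic endothelial cells (LECs) for both genes.

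The fibulins and MFAP4 followed that order. In FAPs FBLN1 ranged from 629 to 1209 CPM (median 957), FBLN5 from 303 to 605 CPM (median 455) and EFEMP1 from 291 to 652 CPM (median 525). MFAP4 ranged from 110 to 266 CPM with a median of 203. In SCs the medians of these 4 genes lay between 13.0 and 22.6 CPM, and in the 4 LEC donors no UMI of MFAP4 or EFEMP1 was counted.

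MFAP2 had a second, lower level in SCs. It ranged from 321 to 727 CPM (median 508) in FAPs and from 81.4 to 231 CPM (median 165) in SCs, and the donor ranges did not overlap. Its medians were 22.9 CPM in VECs and 1.98 CPM in SMMCs. In monocytes/macrophages, which are not known to make elastic fibres, the median was 0.

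ELN was found in several cell types. FAPs ranged from 408 to 724 CPM with a median of 531, while the 4 donors with LEC values ranged from 364 to 783 CPM, a range that overlapped that of the FAPs. SMMCs had a median of 163 CPM (61.1 to 411) and VECs of 111 CPM (48.1 to 231), and these ranges overlapped each other. The median was 34.0 CPM in SCs and 3.04 CPM in monocytes/macrophages.

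LTBP1 was likewise found in several types. The median was 236 CPM in FAPs (170 to 292), 135 CPM in LECs (53.5 to 322), 122 CPM in VECs (58.1 to 224) and 93.6 CPM in SMMCs (0 to 346). These 4 ranges overlapped. SCs had a median of 48.1 CPM (15.5 to 102), below every FAP donor.

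**Figure D1:**
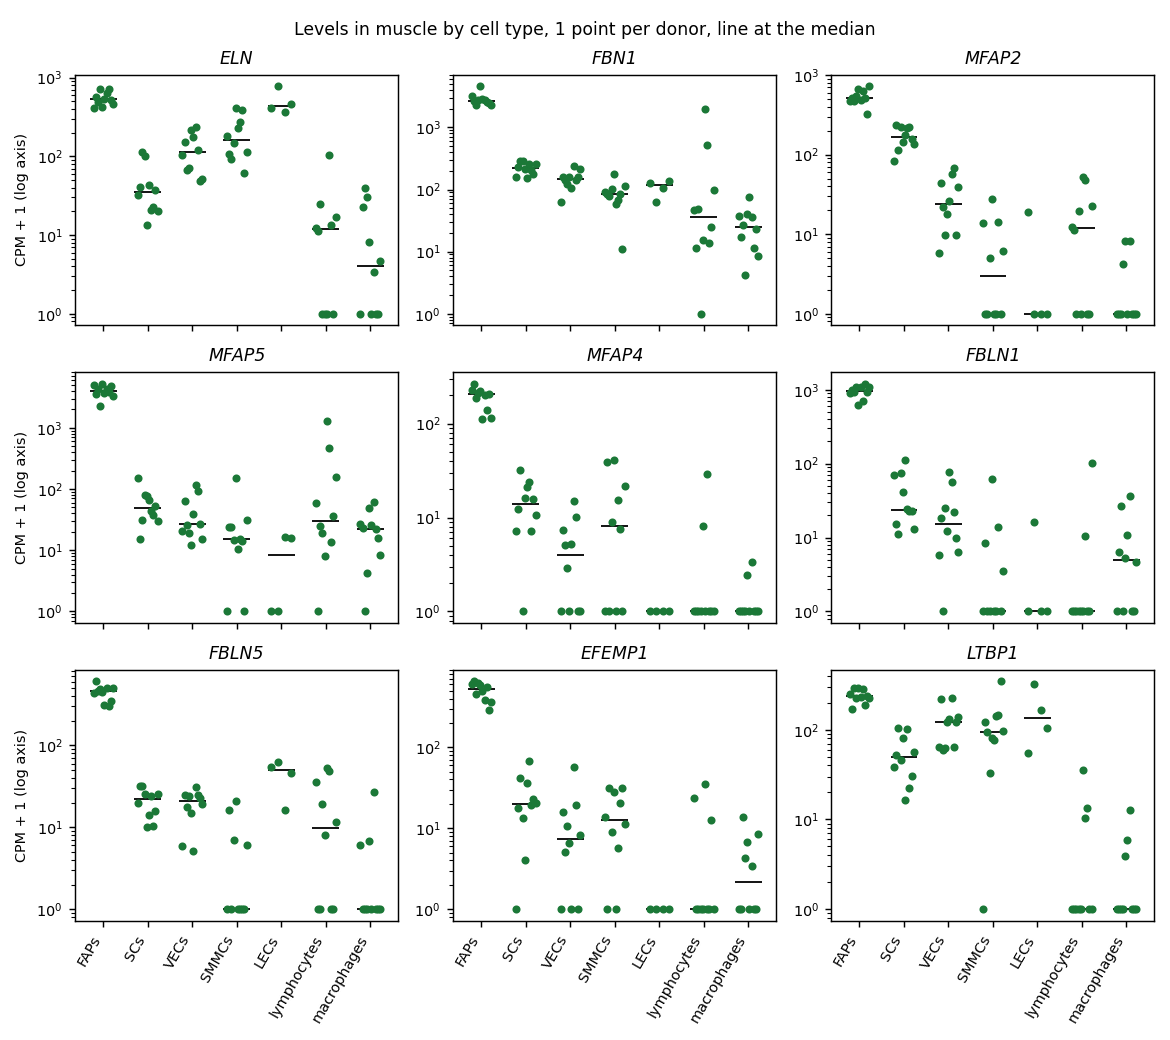
Level of each gene in muscle, as CPM + 1 on a log axis, by cell type; each point is 1 donor (10 donors, 4 for LECs) and the line is the median. FAPs lie above the other types for MFAP5, FBN1, MFAP2, FBLN1, FBLN5, EFEMP1 and MFAP4 apart from single lymphocyte donors near them for FBN1 and MFAP5, while ELN and LTBP1 are spread over FAPs, LECs, SMMCs and VECs.

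A small cluster of tenocytes, the fibroblasts of tendon, had a pattern of its own. Its 23 cells came from 6 donors and no donor had 10 of them, so their UMIs were pooled and the exact Poisson intervals (95%) cover counting error alone. ELN stood at 3199 CPM (interval 2912 to 3507) against 521 CPM in all muscle FAPs pooled. MFAP4 stood at 796 CPM (656 to 957) and FBLN1 at 1649 CPM (1444 to 1874), also above the pooled FAPs, while EFEMP1 had 2 UMIs, or 14.1 CPM (1.71 to 50.9). Of the 454 ELN UMIs, 189 came from 3 cells.

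Immune cells mostly had low levels. In monocytes/macrophages of muscle the median of FBN1 was 24.0 CPM, that of MFAP5 was 21.4 CPM and the medians of the other 7 genes were at most 4.01 CPM. Lymphocytes of donor 6 had 1946 CPM of FBN1 (113 UMIs in 15 cells) and those of donor 7 had 518 CPM, against at most 95.8 CPM in the other 8 donors. Across donors, 3 of the 188 lymphocytes held 164 of their 198 FBN1 UMIs. Doublets of cells from 1 donor cannot be recognised by genotype, and the source of these UMIs was not tested. Neutrophils had 51 cells and 1 donor with at least 10, and pooled they stood at 557 CPM for FBN1 (55 UMIs, 41 of them in 3 cells), 547 CPM for FBLN1 (54 UMIs, 38 in 3 cells), 354 CPM for MFAP5 (35 UMIs, 26 in 3 cells) and 233 CPM for ELN (23 UMIs, 17 in 3 cells). The pooled FBLN1 level of neutrophils was 60.9% of that of muscle FAPs.

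After 72 h of culture these transcripts made up a far smaller share of FAP UMIs. FAPs carried a median of 6213 UMIs per cell in muscle and 24188 at P0. A fall in CPM is therefore not a fall of the same size in UMIs per cell. The summed level of the 9 genes was 0.996% of all FAP UMIs in the median muscle donor (0.897 to 1.32%) and 0.0677% at P0 (0.0600 to 0.0976%). All 9 genes fell, with no overlap between the 9 donors at P0 and the 10 donors in muscle, and 0 of 9 donors present at both was higher at P0 for any of them. The share of all genes without such overlap was not counted. Of the 9208 genes tested 43.4% were called, 20.9% higher and 22.5% lower. The median log2-FC was -5.16 over the 9 genes and 0.03 over all genes tested.

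MFAP5 and MFAP4 had the lowest log2-FCs of the 9 genes. MFAP5 ranged from 8.82 to 51.1 CPM at P0 (median 15.04), against 2305 to 5266 CPM in muscle, a log2-FC of -7.63 (SE 0.35, adjusted p = 2.02e-13). MFAP4 ranged from 0.563 to 2.42 CPM (median 1.28), a log2-FC of -7.05 (SE 0.22, adjusted p = 4.79e-18). With 174 UMIs in all P0 FAPs, MFAP4 passed the filter on low counts through muscle, so nothing beyond its levels is read from its call. MFAP2 ranged from 12.6 to 31.1 CPM (median 14.7), a log2-FC of -4.88 (SE 0.21, adjusted p = 7.22e-15). Their median levels at P0 were thus 0.370%, 0.631% and 2.89% of those in muscle.

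The 3 fibulin genes had log2-FCs between -5.16 and -5.20. FBLN1 ranged from 14.2 to 37.1 CPM at P0 (median 22.5) and had a log2-FC of -5.16 (SE 0.19, adjusted p = 1.40e-16). FBLN5 ranged from 6.98 to 17.8 CPM (median 11.9, log2-FC -5.18, SE 0.20, adjusted p = 1.27e-15). EFEMP1 ranged from 7.08 to 39.5 CPM (median 9.10, log2-FC -5.20, SE 0.37, adjusted p = 1.34e-10), and its highest donor, donor 5, stood apart from the other 8, which reached 12.1 CPM.

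ELN, FBN1 and LTBP1 fell less. ELN ranged from 35.7 to 97.1 CPM at P0 (median 54.1), against 408 to 724 CPM in muscle, an 8.93-fold decrease (log2-FC -3.16, SE 0.19, adjusted p = 1.19e-12). FBN1 ranged from 389 to 657 CPM (median 490), a 5.15-fold decrease (log2-FC -2.36, SE 0.14, adjusted p = 4.57e-13). LTBP1 ranged from 23.2 to 102 CPM (median 34.7), a 5.01-fold decrease (log2-FC -2.32, SE 0.25, adjusted p = 4.41e-08), with donor 9 highest.

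**Figure D2:**
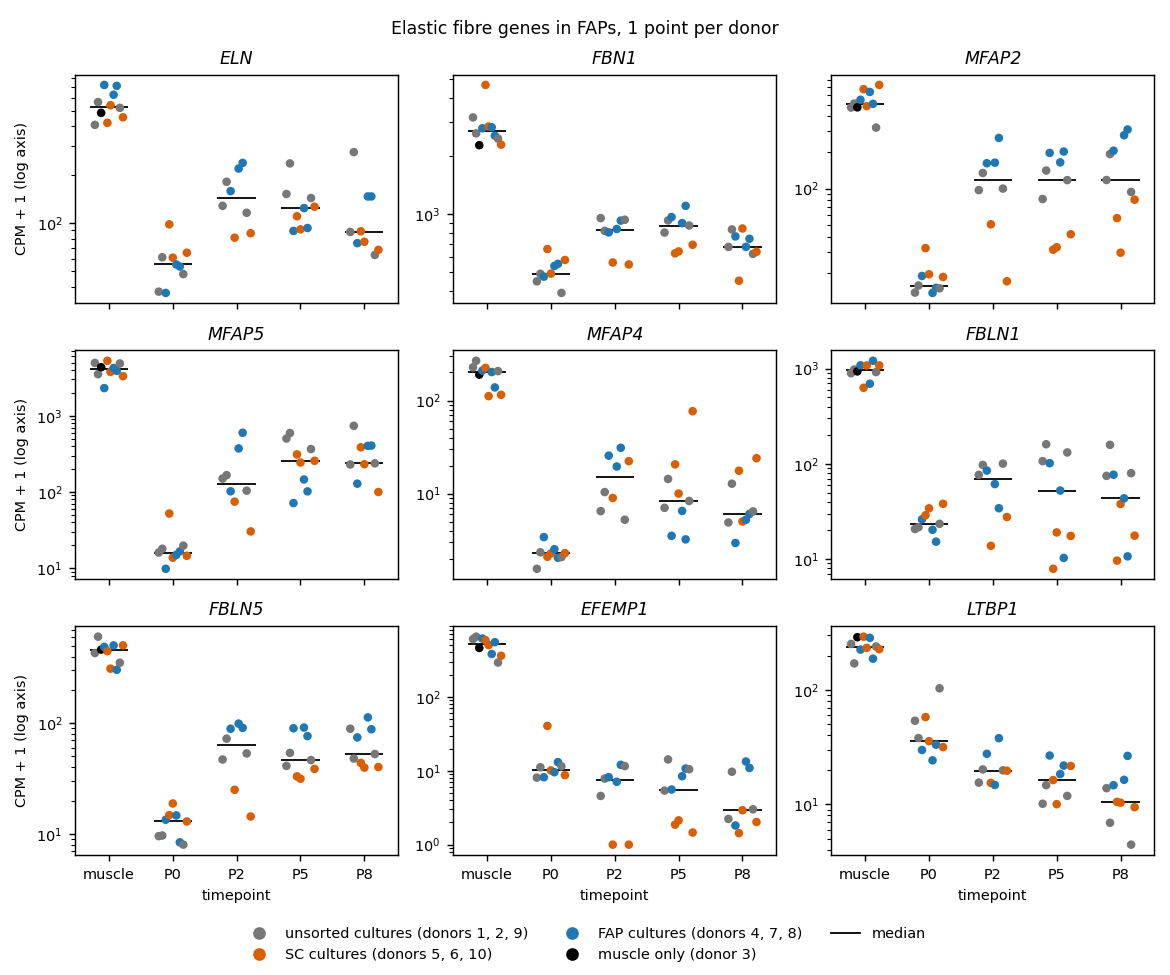
Level of each gene in FAPs at the 5 timepoints, as CPM + 1 on a log axis; each point is 1 donor with at least 10 FAPs, coloured by the culture its cells entered after P0, and the line is the median. At P0 all 9 donors lie below all 10 muscle donors for every gene, and the later passages stay below muscle.

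The share of FAPs with a UMI was also lower at P0 once each cell was thinned to 2000 UMIs. It is given beside that of monocytes/macrophages (median depths of 6213 and 6108 UMIs in muscle and 24188 and 7568 at P0). The source of the UMIs in monocytes/macrophages was not tested. MFAP5 was found in 90.9% of muscle FAPs and 3.57% of P0 FAPs, against 3.28% and 0.647% of monocytes/macrophages. ELN was found in 46.6% and 10.3% of FAPs, against 1.24% and 5.05%, and FBN1 in 90.9% and 59.7%, against 5.49% and 25.0%. MFAP4 was found in 25.4% and 0.285% of FAPs, against 0.113% and 0.246%, the last from 2 UMIs in 141 cells. Its share in the other types at P0 was 1.41% in SCs, 0.428% in SMMCs and 0.0928% in VECs, and no MFAP4 UMI was counted in the 168 LECs (exact Poisson upper limit 1.995 CPM).

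Most other genes of the pathway also fell in FAPs. Of 23 further elastic fibre genes (other fibrillins, latent TGF-beta binding proteins, fibulins, emilins, lysyl oxidases, ADAMTS-like proteins and TGF-beta ligands), 21 were tested, 19 fell and 0 rose. Among all genes tested 22.5% were called lower and 20.9% higher. Genes that passed the filter on low counts through muscle alone were not set apart, so nothing beyond the direction is read from these counts and log2-FCs. The 6 further elastic fibre genes with the largest change were LTBP4, which binds latent TGF-beta and also assists FBLN5 (log2-FC -10.47), ADAMTSL2, a secreted protein that binds fibrillin (-9.52), LTBP3 (-4.38), the lysyl oxidase LOXL4 (-4.26), the fibulin FBLN2 (-3.97) and THSD4, a promoter of microfibril assembly (-3.87). The summed level of the 5 FAP markers (PDGFRA, DCN, LUM, DPT and CCDC80) also differed, at 22570 to 27513 CPM in muscle and 3344 to 5048 CPM at P0, with none of them at 0. In the same cells the 4 tenocyte markers (TNMD, SCX, THBS4 and FMOD) summed to 275 to 1009 CPM in muscle, with SCX at 0, and 11.7 to 24.7 CPM at P0. The 5 muscle fibre transcripts (ACTA1, MYH1, MYH2, CKM and TNNT3) summed to 664 to 1099 CPM in muscle and 0.185 to 1.10 CPM at P0, with MYH2 at 0, and the 6 SC markers to 77.1 to 237 and 13.5 to 22.6 CPM. Monocyte/macrophage markers summed to 39.4 to 137 CPM in muscle and 17.2 to 28.8 CPM at P0, and neutrophil markers to 0 to 3.70 CPM and 7.75 to 61.5 CPM, with CXCR2 at 0 in both. The part of these sums in the result was not tested.

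In SCs the genes split. ELN ranged from 46.7 to 203 CPM at P0 (median 74.5) and from 12.2 to 113 CPM in muscle (median 34.0), and it rose with a log2-FC of 1.23 (SE 0.42, adjusted p = 0.0125). It was higher at P0 in 8 of 9 donors, although the ranges overlapped. Of the 5221 genes tested in SCs 34.3% were called, 15.8% higher and 18.5% lower. Of the 5 elastic fibre genes tested 1 was called higher and 2 lower, and those 2 passed the filter on low counts through muscle.

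FBN1 in SCs ranged from 379 to 568.5 CPM at P0 (median 430) against 153 to 287 CPM in muscle, without overlap. Its log2-FC of 0.94 (SE 0.12, adjusted p = 1.04e-07) missed the fold threshold. It passed with DESeq2 (1.03), with donors of at least 30 cells (1.03) and without the filter on low counts (1.30). LTBP1 ranged from 37.2 to 148 CPM at P0 and 15.5 to 102 CPM in muscle (log2-FC 0.74, SE 0.35, adjusted p = 0.0601), and it passed without the filter on low counts (log2-FC 1.10, adjusted p = 0.0129).

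The 2 MFAP genes that could be tested in SCs were lower at P0. Both passed the filter on low counts through muscle, where they were high, so nothing beyond their levels is read from their calls. MFAP2 ranged from 8.43 to 13.6 CPM at P0 against 81.4 to 231 CPM in muscle (log2-FC -4.10, SE 0.16, adjusted p = 7.37e-17). MFAP5 ranged from 0.716 to 7.61 CPM against 14.1 to 150 CPM (log2-FC -4.90, SE 0.37, adjusted p = 1.71e-11). MFAP4, FBLN1, FBLN5 and EFEMP1 had too few UMIs to be tested in SCs, with medians of 3.26 to 15.2 CPM at P0.

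In monocytes/macrophages the median was higher at P0 than in muscle for 6 of the 9 genes, lower for MFAP5 and 0 in both for MFAP4 and FBLN5. At P0 the median was 187 CPM for FBN1, 13.7 CPM for ELN and 20.6 CPM for LTBP1, against 24.0, 3.04 and 0 CPM in muscle, and 5.43 CPM for MFAP2, 9.47 CPM for FBLN1 and 6.86 CPM for EFEMP1 against 0, 4.01 and 1.19 CPM. MFAP2, FBLN1 and EFEMP1 rest on 7, 11 and 6 UMIs at P0, and their pooled Poisson intervals at P0 and in muscle overlapped. Those of FBN1, ELN and LTBP1 did not overlap. The median of MFAP5 was 3.98 CPM at P0 and 21.4 CPM in muscle. After thinning, FBN1 was found in 53.8% of P0 SCs and 25.0% of P0 monocytes/macrophages, and ELN in 16.1% and 5.05%, at median depths of 18203 and 7568 UMIs. The 5 FAP markers summed to 1188 to 2277 CPM in SCs at P0 and 80.9 to 919 CPM in SCs of muscle. The 6 SC markers summed to 114 to 269 CPM at P0 and 1058 to 2918 CPM in muscle, and the 5 muscle fibre transcripts to 0 to 0.407 CPM and 261 to 794 CPM. The SMMC markers summed to 23.2 to 108 CPM at P0 and 179.9 to 706 CPM in muscle, and the 4 LEC markers to 1.09 to 4.06 CPM and 25.1 to 102 CPM. The part of free RNA, of FAP transcripts or of these sums in the SC values was not tested.

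In the vessel cells the levels of ELN and LTBP1 were lower at P0. In VECs ELN ranged from 8.10 to 18.4 CPM at P0 against 48.1 to 231 CPM in muscle (log2-FC -3.28, SE 0.30, adjusted p = 4.49e-09), and LTBP1 from 4.40 to 26.6 CPM against 58.1 to 224 CPM (log2-FC -2.90, SE 0.31, adjusted p = 5.88e-08). FBN1 in VECs had a median of 76.4 CPM at P0 and 149 CPM in muscle, with a log2-FC of -0.93 that missed the fold threshold. Thus 2 of the 3 genes tested in VECs were called lower, where 35.1% of all genes tested were called, 15.6% higher and 19.6% lower. Both passed the filter on low counts through muscle, where they were higher, so nothing beyond their levels is read from their calls. The FAP markers summed to 274 to 570.3 CPM in VECs at P0 and 39.6 to 875 CPM in muscle, the tenocyte markers to 4.54 to 35.2 CPM (SCX and TNMD at 0) and 54.7 to 169.8 CPM, and the muscle fibre transcripts to 0 to 1.62 CPM and 238 to 834 CPM. Their part in the result was not tested.

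In SMMCs ELN ranged from 19.0 to 57.6 CPM in 7 donors at P0 against 61.1 to 411 CPM in 10 donors in muscle (log2-FC -2.78, SE 0.37, adjusted p = 2.39e-06). LTBP1 had a median of 39.4 CPM at P0 and 93.6 CPM in muscle (log2-FC -1.38, SE 0.46, adjusted p = 0.0137), a call that was lost without the filter on low counts (adjusted p = 0.0621). FBN1 was 74.4 to 200 CPM against 10.2 to 175 CPM (log2-FC 0.49, adjusted p = 0.0737). Thus 2 of the 3 genes tested in SMMCs were called lower, where 36.4% of all genes tested were called, 15.1% higher and 21.3% lower. Both needed muscle, where their medians were higher, to pass the filter on low counts, so nothing beyond their levels is read from their calls. The 5 SMMC markers (RGS5, NOTCH3, MYH11, CNN1 and ACTA2) summed to 1294 to 5899.6 CPM at P0 and 7028 to 24091 CPM in muscle, with none at 0. The tenocyte markers summed to 24.4 to 263 CPM at P0 and 352 to 1352 CPM in muscle (SCX at 0 in both), the FAP markers to 1492 to 2577 CPM and 244 to 1542 CPM, and the muscle fibre transcripts to 0 to 2.22 CPM and 89.3 to 513 CPM. Their part in the result was not tested.

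**Figure D3:**
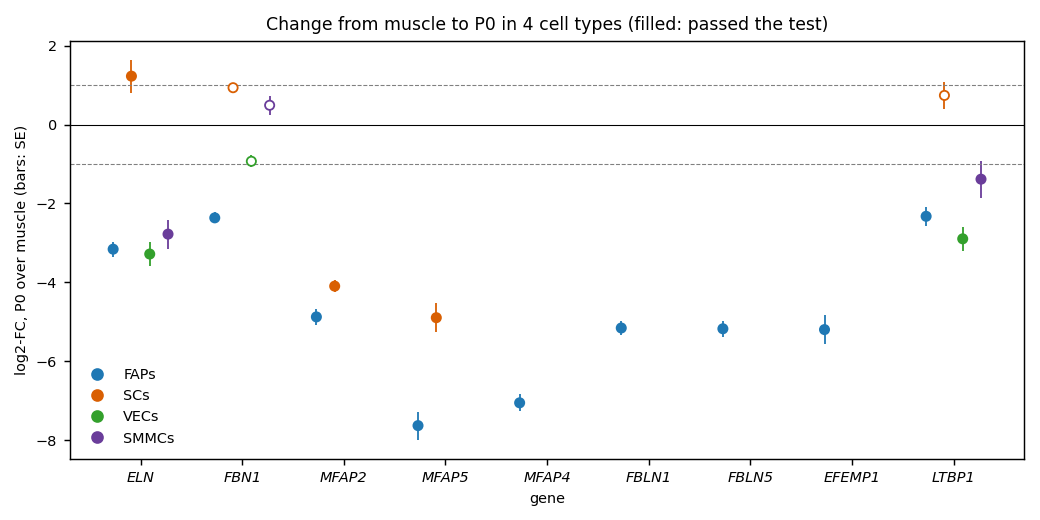
Log2-FC of each gene from muscle to P0 in FAPs, SCs, VECs and SMMCs, with bars for 1 SE; filled points passed the test and open points did not, dashed lines mark a log2-FC of 1 and -1, and genes with too few UMIs have no point. ELN is near -3 in FAPs, VECs and SMMCs and 1.23 in SCs, and MFAP5 and MFAP4 have the lowest values in FAPs.

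The FAP and SC changes were compared in 1 model. Of the 5 genes that could be tested in SCs, the change was called lower in FAPs for 4 (ELN, FBN1, MFAP5 and LTBP1). In the model 20.0% of its 8751 genes were called, 7.60% higher in FAPs and 12.4% lower. MFAP5 and MFAP2 passed the filter on low counts in SCs through muscle, so nothing beyond their levels is read from their differences. MFAP4, FBLN1, FBLN5 and EFEMP1 entered the model through their level in FAPs and had too few UMIs for a test in SCs, so nothing is read from their difference. ELN differed by -4.59 on the log2 scale (SE 0.41, adjusted p = 3.31e-11), and FBN1 by -3.53 (SE 0.19, adjusted p = 5.65e-18). MFAP2 differed by -0.99 (SE 0.26, adjusted p = 0.00211), below the fold threshold, and it passed in 3 of the 6 other fits, by -1.05 with the donor as a block (adjusted p = 6.48e-04), by -1.02 with DESeq2 (adjusted p = 4.58e-04) and by -1.01 with donors of at least 30 cells (adjusted p = 0.00218). With each donor total thinned to the smallest, the log2 difference of MFAP5 was -3.05 against -2.93 with all UMIs, but its SE was 2.82 and the call was lost (adjusted p = 0.455).

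Calves and adults were compared because the donors differed in age class. In muscle FAPs, ELN was 566, 724, 420, 629 and 455 CPM in the calves (donors 2, 4, 5, 7 and 10) and 408, 484, 540, 714 and 521 CPM in the adults (donors 1, 3, 6, 8 and 9). The groups overlapped, with a log2-FC of 0.17 (SE 0.17, adjusted p = 0.690). Under edgeR, 0 of the 9 genes were called, and DESeq2 also called 0. Of the 9, 2 had an unadjusted p below 0.05 by edgeR, as had 1063 of all 6158 genes tested. Of all genes tested 1.32% were called, 0.568% higher and 0.747% lower in calves.

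Those 2 genes were MFAP2 and FBLN5. MFAP2 was 509, 547, 670, 636 and 727 CPM in calves and 471, 473, 485, 506 and 321 CPM in adults, so every calf was higher, with a log2-FC of 0.56 (SE 0.15, adjusted p = 0.0478) that was below the fold threshold. FBLN5 was 605, 488, 447, 504 and 505 CPM in calves and 430, 462, 310, 303 and 351 CPM in adults, with 1 calf below 1 adult (log2-FC 0.58, SE 0.14, adjusted p = 0.0275). Scaled by library size alone, their adjusted p was 0.0869 and 0.0791.

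Neither age class nor its change with culture passed the test for any of the 9 genes at P0. Under edgeR, 0 genes of any kind (0%) were called between calf and adult FAPs at P0 (575 genes, none of these 9, had an unadjusted p below 0.05, and DESeq2 called 8 genes and none of these 9). The difference between calves and adults was not shown to change from muscle to P0 for any of the 9, where 0.571% of all genes were called (0.384% higher and 0.187% lower), 0 of the 9 had an unadjusted p below 0.05 and DESeq2 called 0 of them. Among the other elastic fibre genes, LTBP2, a microfibril protein of the latent TGF-beta binding family, was lower in calves in muscle (mean 14.5 against 47.1 CPM, log2-FC -1.62, SE 0.41, adjusted p = 0.0462).

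From P0 to P2 most of the genes rose in FAPs. In the FAP cultures ELN was 157, 217 and 236 CPM at P2 in donors 4, 7 and 8, against 35.7, 54.1 and 52.5 CPM at P0, a 4.65-fold increase (log2-FC 2.22, SE 0.23, adjusted p = 7.17e-04). MFAP5 was 101.1, 372 and 597 CPM against 8.82, 13.96 and 15.6 CPM (log2-FC 4.91, SE 0.69, adjusted p = 0.00177). Of the 9 genes 6 rose and 0 fell, where 22.7% of 11577 genes tested were called, 13.4% higher and 9.37% lower. The rises of MFAP2, MFAP4, FBLN5 and FBLN1 had log2-FCs of 3.85, 4.03, 3.17 and 1.72, and FBLN1 lost its call without donor 7 (adjusted p = 0.0838). The calls over all genes numbered 2631, and 1486 without donor 7.

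FBN1 was 802, 835 and 923 CPM at P2 against 473, 537 and 551 CPM at P0, a log2-FC of 0.83 (SE 0.11, adjusted p = 0.00128) below the fold threshold. EFEMP1 and LTBP1 had log2-FCs of -0.10 and -0.02 in these cultures (adjusted p = 0.784 and 0.960), and their ranges overlapped. In these FAPs the FAP markers summed to 10204 to 19563 CPM at P2 and 3344 to 4035 CPM at P0, the SMMC markers to 488 to 614 CPM and 48.3 to 75.3 CPM (RGS5 at 0 in both), and the tenocyte markers to 105 to 254 CPM and 15.1 to 21.5 CPM (TNMD at 0 at P0). Muscle fibre transcripts summed to 2.66 to 4.07 CPM at P2 and 0.185 to 0.558 CPM at P0, VEC markers to 5.32 to 8.66 CPM and 12.3 to 24.03 CPM, and LEC markers to 0.228 to 0.858 CPM and 1.85 to 3.003 CPM. The part of these sums in the result was not tested.

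In the unsorted cultures 7 of the 9 genes rose in FAPs and 1 fell, where 24.0% of all genes were called, 13.4% higher and 10.6% lower. ELN was 127, 180 and 115 CPM at P2 in donors 1, 2 and 9 against 36.3, 60.1 and 47.0 CPM at P0 (log2-FC 1.75, SE 0.25, adjusted p = 0.00112). FBN1 rose by a log2-FC of 1.21 (SE 0.09, adjusted p = 1.73e-05), and MFAP2, MFAP5, MFAP4, FBLN1 and FBLN5 by 3.19, 3.23, 2.87, 2.30 and 3.00. The gene that fell was LTBP1, at 14.5, 19.2 and 18.8 CPM against 52.8, 37.0 and 102 CPM (log2-FC -1.68, SE 0.40, adjusted p = 0.0124), a call that was lost without donor 1 (adjusted p = 0.0748). The FAP markers summed to 12701 to 13937 CPM at P2 and 4017 to 4429 CPM at P0, the SMMC markers to 574 to 1104 CPM and 36.1 to 61.3 CPM, and the tenocyte markers to 119.6 to 211 CPM and 21.6 to 24.7 CPM, with the same 2 markers at 0. Muscle fibre transcripts summed to 3.14 to 3.51 CPM at P2 and 0.453 to 0.563 CPM at P0, neutrophil markers to 6.83 to 15.1 CPM and 22.8 to 52.6 CPM, SC markers to 10.7 to 12.2 CPM and 14.3 to 16.98 CPM, and VEC markers to 9.02 to 12.1 CPM and 12.5 to 15.7 CPM. Their part in the result was not tested.

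Of the other elastic fibre genes 22 were tested from P0 to P2 in FAPs of the FAP cultures and of the unsorted cultures. In the FAP cultures 13 rose and 1 fell, where 13.4% of all genes were called higher and 9.37% lower. As many rose and fell in the unsorted cultures, where these shares were 13.4% and 10.6%. The later passages stayed below muscle. In all 26 donor values of FAPs from P2 to P8, each of the 9 genes lay below every muscle donor. The share of all genes that lay below muscle in this way was not counted. The median over the 26 values was 29.8% of the muscle median for FBN1, 23.0% for MFAP2, 22.4% for ELN and 11.4% for FBLN5. It was 6.12% for LTBP1, 5.84% for FBLN1, 5.75% for MFAP5, 3.77% for MFAP4 and 0.853% for EFEMP1, and for EFEMP1 and LTBP1 none of the 26 values exceeded the highest P0 donor.

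From P2 to P8 the number of calls depended on the fit. In the FAP cultures DESeq2 called 1 of the 9 genes. By edgeR 2 of the 9 had an unadjusted p below 0.05, as had 785 of all 11082 genes tested. With adjustment edgeR called 0 of the 9, where 0.0361% of all genes were called (0.0271% higher and 0.00902% lower). That share was 4 genes, against 107 with DESeq2, 10 without the filter on low counts, 244 with the donor as a block and 0 when donor 4, 7 or 8 was left out, and deviations of the same donor correlated at 0.675 to 0.898 between P2 and P8. The member that DESeq2 called was MFAP4, at 1.957, 4.25 and 5.06 CPM at P8 against 24.6, 18.6 and 30.1 CPM at P2 in donors 4, 7 and 8 (log2-FC -2.73, SE 0.36, adjusted p = 0.106). With the donor as a block it passed (log2-FC -2.74, adjusted p = 2.37e-04). In these FAPs neutrophil markers summed to 0 to 0.440 CPM at P8 and 2.84 to 7.83 CPM at P2, muscle fibre transcripts to 1.30 to 2.43 CPM and 2.66 to 4.07 CPM, and SC markers to 14.97 to 16.5 CPM and 12.2 to 14.9 CPM, and what part these had was not tested. In the unsorted cultures edgeR again called 0 of the 9, where 0.817% of all genes were called (0.571% higher and 0.246% lower), and DESeq2 called 1. By edgeR 3 of the 9 had an unadjusted p below 0.05, as had 1389 of all 11387 genes tested. MFAP5, the gene DESeq2 called, was 229, 738 and 237 CPM at P8 against 149, 165 and 103 CPM at P2 (log2-FC 1.501, SE 0.50, adjusted p = 0.295 by edgeR and 0.0453 by DESeq2). The calls over all genes in the unsorted cultures were 93, and 3, 245 and 0 without donors 1, 2 and 9, 257 with DESeq2, 54 with thinned totals and 191 with the donor as a block. The FAP markers summed to 5754 to 12404 CPM at P8 and 12701 to 13937 CPM at P2 in these FAPs, and the SC markers to 12.8 to 28.1 CPM and 10.7 to 12.2 CPM. Muscle fibre transcripts summed to 1.45 to 2.17 CPM at P8 and 3.14 to 3.51 CPM at P2, and lymphocyte markers to 0 and 0.0650 to 0.310 CPM, and what part these sums had was not tested.

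In SCs of the SC cultures 3 of the 9 genes were called from P0 to P2. LTBP1 was 2.77, 2.76 and 2.46 CPM at P2 in donors 5, 6 and 10 against 120, 37.2 and 96.6 CPM at P0, a 31.8-fold decrease (log2-FC -4.99, SE 0.45, adjusted p = 0.00119). FBLN5 was 22.1, 33.2 and 15.2 CPM against 1.69, 4.47 and 4.31 CPM (log2-FC 2.63, SE 0.39, adjusted p = 0.00508). MFAP5 was 4.75, 11.4 and 5.99 CPM against 1.01, 2.60 and 2.25 CPM (log2-FC 1.79, SE 0.44, adjusted p = 0.0279), and its adjusted p was 0.0725 to 0.101 when donor 5, 6 or 10 was left out. Thus 2 genes rose and 1 fell, where 9.76% of all genes were called, 5.67% higher and 4.09% lower. The calls over all genes numbered 1136, and 494 and 432 without donors 5 and 6. In these SCs the muscle fibre transcripts summed to 29.0 to 161 CPM at P2 and 0 to 0.312 CPM at P0 (MYH1, MYH2 and TNNT3 at 0). The SMMC markers summed to 445 to 914 CPM at P2 and 72.5 to 99.5 CPM at P0 (RGS5 at 0 in both), the FAP markers to 2919.5 to 5115 CPM and 1577 to 1588 CPM, and the SC markers to 403 to 878 CPM (CHRDL2 at 0) and 166 to 269 CPM. Lower at P2 than at P0 without overlap were the sums of neutrophil markers (0.0630 to 0.0944 against 18.6 to 30.7 CPM), of monocyte/macrophage markers (2.61 to 4.63 against 10.1 to 13.9 CPM) and of VEC markers (2.46 to 2.80 against 5.74 to 11.2 CPM). Their part in the result was not tested.

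MFAP4 in these SCs was 9.16, 23.9 and 21.0 CPM at P2 against 3.37, 7.48 and 8.61 CPM (log2-FC 1.39, SE 0.41, adjusted p = 0.0522), and it passed with the donor as a block (log2-FC 1.47, adjusted p = 0.00226), with DESeq2 (log2-FC 1.41, adjusted p = 0.0059) and without donor 5 (adjusted p = 0.0233). ELN was widely spread among the donors, at 32.4, 243 and 56.7 CPM at P2 and 203, 107 and 118 CPM at P0 (log2-FC -0.37, SE 0.69, adjusted p = 0.736). Donor 6, the adult of the group, was highest for ELN at P2 and P5, at 243 and 189 CPM.

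From P2 to P5 edgeR called 0 of the 9 genes in these SCs, where 3.01% of all genes were called (0.845% higher and 2.16% lower). By edgeR 2 of the 9 had an unadjusted p below 0.05, as had 3203 of all 12195 genes tested, and DESeq2 called 2 of the 9. These were MFAP5, at 18.9, 29.6 and 14.5 CPM at P5 (log2-FC 1.56, SE 0.40, adjusted p = 0.0675), and FBLN5, at 49.9, 55.9 and 40.8 CPM (log2-FC 1.10, SE 0.29, adjusted p = 0.0728). Both passed with the donor as a block (adjusted p = 0.0210 and 0.0270). Without donor 6, MFAP5 passed in the fit without the block (adjusted p = 0.0282). The 367 calls over all genes numbered 0 without donor 5, 317 without donor 6 and 0 without donor 10. The tenocyte markers summed to 25.9 to 62.0 CPM at P5 and 7.66 to 17.7 CPM at P2, with TNMD at 0 in both, the SMMC markers to 934 to 1009.7 CPM and 445 to 914 CPM, and the VEC markers to 3.43 to 5.49 CPM and 2.46 to 2.80 CPM, and their part was not tested.

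**Figure D4:**
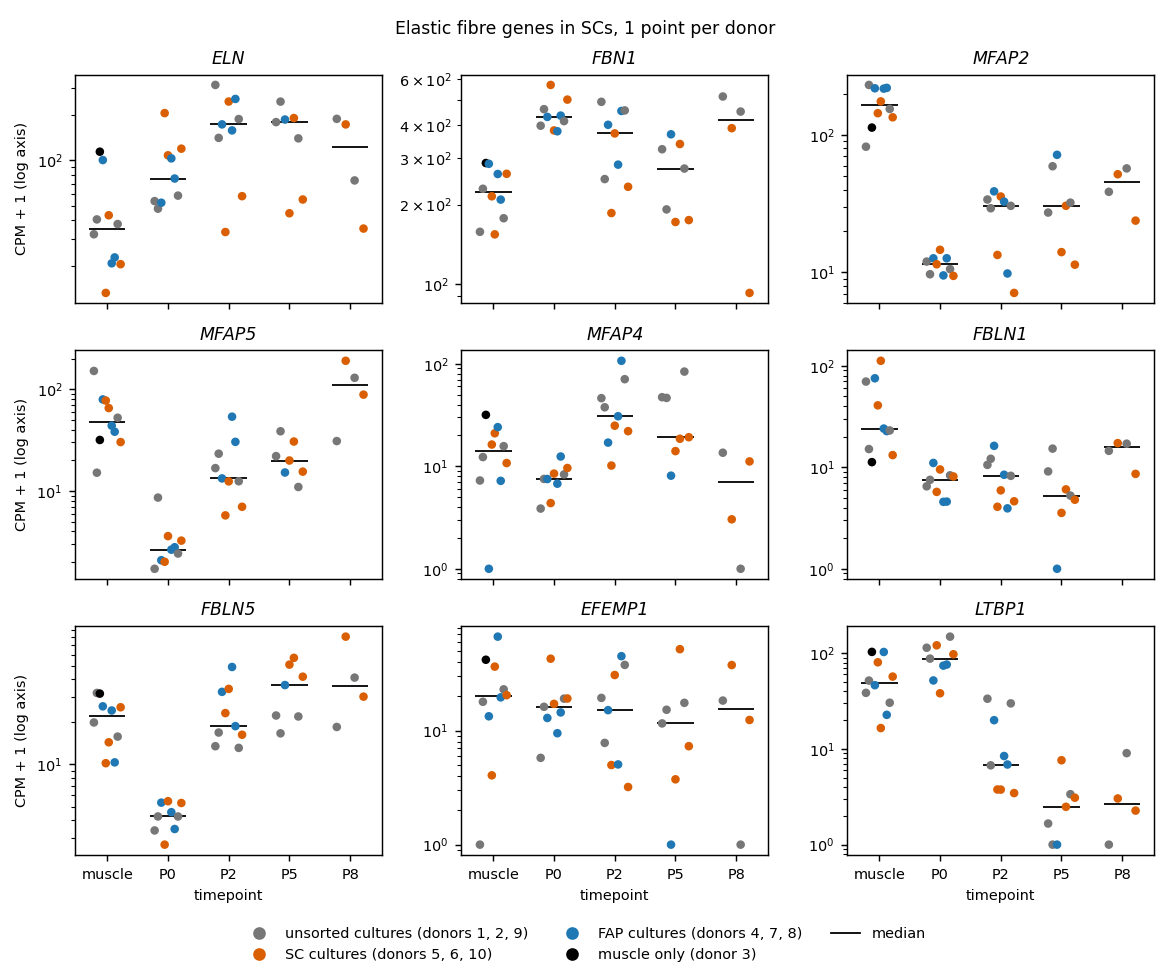
Level of each gene in SCs at the 5 timepoints, as CPM + 1 on a log axis; each point is 1 donor with at least 10 SCs, coloured by the culture its cells entered after P0, and the line is the median. The medians of ELN and FBN1 are higher at P0 than in muscle, those of MFAP2 and MFAP5 are lower, and LTBP1 of the SC cultures lies at 1.27 to 6.62 CPM after P0.

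The SC cultures also held FAPs, and these differed from the FAPs of FAP cultures. At P5 edgeR called 5 of the 9 genes, 3 lower and 2 higher, where 15.9% of all genes were called, 7.90% lower and 7.99% higher. MFAP2 was 30.1, 31.6 and 40.8 CPM in donors 5, 6 and 10 of the SC cultures against 197, 164 and 203 CPM in donors 4, 7 and 8 of the FAP cultures, 6.35-fold lower (log2-FC -2.67, SE 0.14, adjusted p = 1.10e-05). FBLN5 was 32.0, 30.5 and 37.6 CPM against 89.0, 90.3 and 75.5 CPM (log2-FC -1.53, SE 0.12, adjusted p = 5.41e-05). EFEMP1 was 0.864, 1.13 and 0.459 CPM against 4.57, 7.43 and 9.71 CPM (log2-FC -3.29, SE 0.45, adjusted p = 5.59e-04). The EFEMP1 values of the SC cultures rest on 14, 1 and 1 UMIs and those of the FAP cultures on 141, 180 and 261, and the gene passed the filter on low counts through the FAP cultures, so nothing is read from its call.

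MFAP4 and MFAP5 were higher in the FAPs of the SC cultures. MFAP4 was 19.6, 9.03 and 75.7 CPM against 2.53, 5.53 and 2.23 CPM (log2-FC 3.18, SE 0.80, adjusted p = 0.0272), and MFAP5 was 310, 243 and 256 CPM against 70.5, 145 and 100.8 CPM (log2-FC 1.16, SE 0.28, adjusted p = 0.0174). Single donors decided these calls. MFAP4 was not called without donor 4, 7 or 8 (adjusted p = 0.111, 0.0558 and 0.111) or without the filter on low counts (adjusted p = 0.0650), and MFAP5 not without donor 4, 5 or 8 (log2-FC 0.93, 0.98 and 1.12, adjusted p = 0.00924, 0.0720 and 0.0720). Without donor 4 only 3 of the 9 genes were called.

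ELN did not pass, at 109, 90.3 and 125 CPM in the SC cultures and 88.2, 123 and 92.0 CPM in the FAP cultures (log2-FC -0.08, SE 0.17, adjusted p = 0.751). FBLN1, at 6.91, 18.1 and 16.5 CPM against 100.7, 51.5 and 9.30 CPM, passed only without donor 8 (log2-FC -3.04, adjusted p = 0.0104, against 0.149 with all donors). Donor 6 contributed 31 FAPs to the SC cultures at P5 and donor 10 contributed 70, while the other 4 donors had 593 to 1437. The FAP markers summed to 3972 to 5010 CPM in FAPs of the SC cultures and 17261 to 20990 CPM in those of the FAP cultures, and the tenocyte markers to 40.8 to 56.4 CPM (SCX and TNMD at 0) and 264 to 350.1 CPM (SCX at 0). VEC markers summed to 2.29 to 6.67 CPM (F11R at 0) and 9.62 to 17.0 CPM. The 6 SC markers summed to 13.5 to 76.8 and 14.99 to 19.2 CPM, with PAX7, CALCR and CHRDL2 at 0 in the SC cultures and CALCR and CHRDL2 at 0 in the FAP cultures. Their part in the result was not tested, and sorted type, coating and donors differ together between these cultures.

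At P8 2 genes were lower in FAPs of the SC cultures, where 1.75% of all genes were called, 0.696% higher and 1.05% lower. MFAP2 was 56.0, 28.4 and 80.1 CPM against 206, 277 and 310 CPM (log2-FC -2.34, SE 0.40, adjusted p = 0.0446), and FBLN5 was 42.8, 38.6 and 39.1 CPM against 73.4, 112 and 87.2 CPM (log2-FC -1.24, SE 0.19, adjusted p = 0.0252). Neither range overlapped, but the share of all genes without such overlap was not counted, so nothing further is read from it. Without donor 5, 7, 8 or 10 of the 6 donors neither gene was called. Without donor 6 only MFAP2 was called, and without donor 4 the number of genes called was 4. MFAP2 also lost its call without the filter on low counts (adjusted p = 0.0711). MFAP4 was 16.6, 4.03 and 23.0 CPM against 1.957, 4.25 and 5.06 CPM (log2-FC 1.87, SE 0.73, adjusted p = 0.237 by edgeR and 0.0313 by DESeq2) and MFAP5 was 385, 230 and 99.0 CPM against 128, 402 and 405 CPM, with overlapping ranges. DESeq2 also called LTBP1 (log2-FC -1.05, adjusted p = 0.0265). The 173 calls over all genes numbered 1 without donor 7, 523 without donor 4 and 38 to 67 when donor 5, 6, 8 or 10 was left out. The FAP markers summed to 4707 to 7130.4 CPM in FAPs of the SC cultures and 8396 to 20931 CPM in those of the FAP cultures, and the tenocyte markers to 35.3 to 62.3 CPM (SCX and TNMD at 0) and 134 to 358 CPM (SCX at 0). Monocyte/macrophage markers summed to 8.95 to 12.2 CPM and 16.95 to 17.8 CPM, with PTPRC at 0 in both. Their part in the result was not tested.

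Between FAPs of unsorted and FAP cultures at P5, MFAP5 was the 1 gene called of the 9, where 1.04% of all genes were called, 0.676% higher and 0.359% lower. It was 502, 592 and 365 CPM in donors 1, 2 and 9, 4.80-fold higher than in the FAP cultures (log2-FC 2.26, SE 0.32, adjusted p = 0.0388). The adjusted p was 0.0572 to 0.138 when donor 1, 4, 7, 8 or 9 was left out, and without donor 2 the number of genes called was 2. The 121 calls over all genes numbered 170 without donor 2, 49 without donor 4 and 1 to 26 when donor 1, 7, 8 or 9 was left out. FBLN5 was 40.1, 52.9 and 45.4 CPM against 89.0, 90.3 and 75.5 CPM, a log2-FC of -0.82 (SE 0.13, adjusted p = 0.0402) below the fold threshold. MFAP4 was called by DESeq2 alone (log2-FC 1.46, adjusted p = 0.0136). The FAP markers summed to 7292 to 13140.0 CPM in the unsorted and 17261 to 20990 CPM in the FAP cultures, the muscle fibre transcripts to 3.62 to 3.92 CPM and 4.05 to 4.87 CPM, and their part in the result was not tested. Sorting, coating and donors differ together between these cultures, and donor 8 of the FAP cultures was male while donors 1, 2 and 9 were female.

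**Figure D5:**
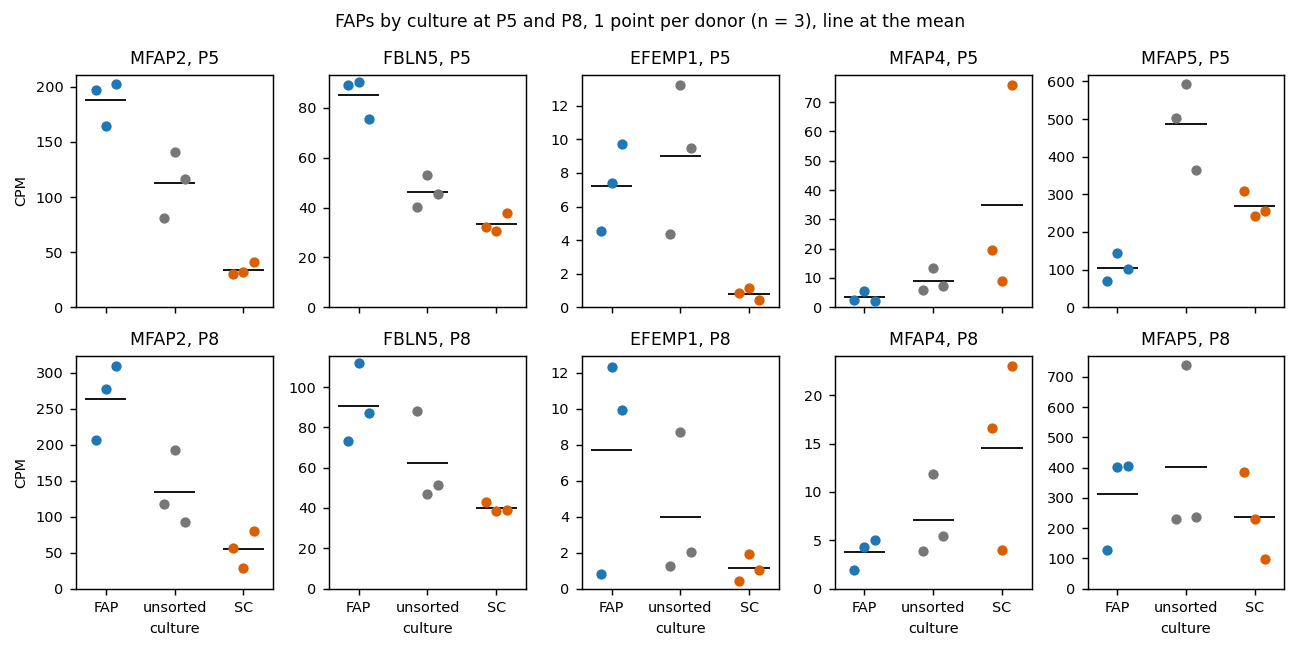
CPM of MFAP2, FBLN5, EFEMP1, MFAP4 and MFAP5 in FAPs of FAP, unsorted and SC cultures at P5 (top) and P8 (bottom); each point is 1 of 3 donors and the line is the mean. MFAP2 and FBLN5 of the SC cultures lie below the FAP cultures at both passages, and MFAP4 of the SC cultures spreads from 9.03 to 75.7 CPM at P5.

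The genes most like each member were found by Spearman's rho over the 45 donor values of FAPs in the 5 libraries, among 7351 genes with a mean of at least 10 CPM. These values share donors and libraries, so rho is a description. MFAP2 and FBLN5 were each among the 3 genes most like the other (rho 0.966), beside LAPTM4A, a membrane protein of lysosomes (0.969 and 0.959). ELN was most like ID3, a transcriptional inhibitor (0.948), SELENOP, a secreted selenoprotein (0.944), and GSN, the actin-severing gelsolin (0.933), and MFAP5 was also close to GSN (0.941). The lowest rho of ELN with another of the 9 genes was that with LTBP1 (0.372), whose closest gene was COLEC12, a scavenger receptor (0.948).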

How the data were processed

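Cells were profiled with the Chromium Single Cell 3′ kit (version 3.1). Per the study's methods and the submitters' processing notes, the authors aligned reads with Cell Ranger 6.0.1 to ARS-UCD1.2 with Ensembl release 101. They merged the 2 sequencing runs of P0, P2 and P5, the timepoints listed with 2 runs, and called donors with demuxlet. The cell tables they deposited give the donor, library and cell type of 36129 singlets. The values used are the deposited raw UMI counts, whole numbers with no normalization. Strand use in counting was not given in the sources used here. Age class and sex were taken from the study's donor table, and 12 other columns of the cell table, the authors' corrected count table and the separate cell tables per library were not used. The members and gene lists were chosen with earlier results of these data known.

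UMIs were summed per donor, cell type and library (at least 10 cells). Each of 17 comparisons was tested across all genes with edgeR 4.0.16 in R 4.3.3 (TMM, filterByExpr, robust quasi-likelihood, Benjamini-Hochberg adjustment; SE is the log2-FC divided by the root of F), and called at adjusted p below 0.05 and absolute log2-FC above 1. Donors are separate animals; p-values measure the spread between them within 1 library per timepoint. Library totals ran from 20977722 UMIs (muscle) to 252316585 UMIs (P2), and donor totals in the tested comparisons from 78426 UMIs (SMMCs in muscle) upwards; Poisson intervals cover counting error alone. Alternatives were DESeq2 1.42.0, library size scaling, no filter on low counts, at least 30 cells, thinning to the smallest total, sex as a covariate, the donor as a block and leaving out each donor. On simulated counts with 200 genes changed by a log2-FC of 2, the steps recovered 81.5% (FAP cultures, P8 against P2, 10929 genes) to 94.5% (FAPs at P0, calves against adults, 11341 genes), and up to 7.65% of calls were false (SCs of SC cultures, P5 against P2, 12073 genes, and FAPs at P5 of SC, 11377 genes, or unsorted, 11566 genes, against FAP cultures). Samples of a donor pair by animal: deviations of the same donor correlated at 0.675 to 0.898 between P2 and P8 in FAP cultures, at 0.411 to 0.578 between P0 and P2 in unsorted cultures and at -0.0619 to 0.247 between muscle and P0 in FAPs. The 9 members were examined in every comparison, but not each of them is given for each comparison. Also named were up to 6 other elastic fibre genes called in FAPs at P0 or between ages, and genes among the 3 most like a member. Doublets within 1 donor were not removed.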

Additional observations from a re-analysis of the deposited data

Results flagged for a closer look

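Single donors stood apart from the other donors of their group in 19 of the 72 groups examined (9 genes in 4 cell types, in muscle and at P0), where chance gives about 1 in 20 for independent, normally spread values. These groups share donors and several hold few UMIs, and the chance rate for such values was not measured. Donor 5, a calf, was the donor in question in 11 of them. In FAPs it was highest for FBN1 in muscle (4647 CPM, others 2267 to 3156) and at P0 for ELN (97.1 CPM, others 35.7 to 64.3), MFAP2 (31.1 CPM, others 12.6 to 18.4), MFAP5 (51.1 CPM, others 8.82 to 18.8) and EFEMP1 (39.5 CPM, others 7.08 to 12.1), with 782 FAPs at P0. In SCs at P0 donor 5 was highest for ELN (203 CPM, others 46.7 to 118) and EFEMP1 (41.8 CPM, others 4.78 to 18.2). The other 4 were counts of 2 to 22 UMIs, for MFAP2, MFAP5 and FBLN1 in muscle SMMCs (26.9, 148 and 60.6 CPM, with 4 of 4, 21 of 22 and 8 of 9 UMIs in 1 cell) and EFEMP1 in P0 VECs (7.19 CPM).

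LTBP1 in P0 FAPs was highest in donor 9, at 102 CPM against 23.2 to 57.0 CPM in the others, and donor 9 was also highest for LTBP1 in muscle SMMCs (346 CPM, 34 UMIs, others 0 to 143) and for FBLN1 in P0 SMMCs (20.8 CPM, 4 UMIs). Donor 2 stood apart for MFAP5 in P0 SCs (7.61 CPM, 7 UMIs) and ELN in P0 SMMCs (57.6 CPM, 26 UMIs), donor 1 for MFAP5 in muscle SCs (150 CPM, 24 UMIs), donor 7 for EFEMP1 in muscle VECs (56.1 CPM, 24 UMIs, 23 of them in 1 cell) and donor 4 for MFAP4 in P0 SMMCs (2.01 CPM, 3 UMIs, others 0).

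The change from muscle to P0 differed between FAPs and SCs by the test of the difference for 4 genes that could be tested in both types. Of these, MFAP5 passed the filter on low counts in SCs through muscle, so nothing beyond its levels is read from its difference. On the log2 scale the FAP change minus the SC change was -4.59 for ELN, -3.53 for FBN1, -2.93 for MFAP5 and -3.28 for LTBP1, and with thinned totals that of MFAP5 was -3.05 (SE 2.82) and no longer called (adjusted p = 0.455). The model also gave -6.25 for MFAP4, -2.59 for FBLN1, -2.85 for FBLN5 and -4.79 for EFEMP1, which had too few UMIs to be tested in SCs and entered it through the FAPs, so nothing is read from these 4 values.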

How the results depend on the processing

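All 9 genes fell in FAPs from muscle to P0 under each of the 6 alternatives run, and 0 of the 9 were called between calves and adults in muscle or at P0, or in the change of that difference, under any. The number of genes called was as follows where it moved by more than 1.5 times. Without the filter on low counts it was 7 in SCs, 8 in VECs and 4 in SMMCs from muscle to P0 (3, 2 and 2 as reported) and 1 in FAPs of SC against FAP cultures at P8 (2 as reported). Thinned to the smallest total, it was 1, 1 and 0 in SCs, VECs and SMMCs and 3 in FAPs of SC against FAP cultures at P5 (5 as reported), and ELN then had too few UMIs to be tested in SCs, VECs and SMMCs, as had MFAP5 and LTBP1 in SCs and FBN1 and LTBP1 in SMMCs. With DESeq2 it was 1 for P8 against P2 in FAP and in unsorted cultures and 2 for P5 against P2 in SCs (0 as reported), 4 in FAPs of SC against FAP cultures at P8 and 2 in FAPs of unsorted against FAP cultures at P5 (1 as reported). With the donor as a replicate block it was 1 for P8 against P2 in FAP cultures and 2 for P5 against P2 in SCs; over all genes the block moved these calls from 4 to 244 in FAP cultures, from 93 to 191 in unsorted cultures and, for the change of the calf-adult difference, from 58 to 37. It changed no other call of a member but MFAP4 in SCs at P2 and MFAP2 in the comparison of FAP and SC changes. Leaving out 1 donor at a time gave 0 to 1 for P5 against P2 in SCs, 3 to 5 in FAPs of SC against FAP cultures at P5, 0 to 4 at P8 and 0 to 2 for unsorted against FAP cultures. The cause of these moves was not tested. In muscle, the calf-adult log2-FC of FBLN1 (-0.07) turned to 0.0087 with sex as a covariate and ranged from -0.157 to 0.0287 with 1 donor left out, and that of MFAP5 (-0.11) from -0.282 to 0.0249 with 1 donor left out. Scaling by library size moved the median log2-FC of all genes by -0.114 in that comparison, by -0.184 between P0 and P2 in unsorted cultures and by 0.183 between SC and FAP cultures at P5. Over all genes, calls from muscle to P0 were 3997 in FAPs (1639 thinned, 6925 without the filter), 1789 in SCs (535, 5286), 2071 in VECs (1188, 5030) and 1257 in SMMCs (494, 4216, and 2177 with at least 30 cells). Thinned, they went from 1754 to 445 for FAP against SC changes, from 81 to 39 for age in muscle (152 without the filter), from 58 to 11 for its change at P0 (111 with DESeq2), from 1136 to 746 for P2 against P0 in SCs and from 1830 to 1009 for SC against FAP cultures at P5. DESeq2 called 414 against 173 for these cultures at P8 and 345 against 121 for unsorted against FAP cultures. Unthinned, the share of FAPs with a UMI was 70.4% for ELN, 97.5% for FBN1, 95.9% for MFAP5 and 47.3% for MFAP4 in muscle and 56.4%, 94.3%, 25.2% and 2.76% at P0.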
